A study of Mus musculus with 8 samples.

Results

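The eIF4F genes encode the factors that recruit ribosomes to the capped 5′ end of mRNA. The set comprised 10 genes, taken by symbol out of the 21949 genes in the tables: the cap-binding genes Eif4e, Eif4e2, Eif4e3 and Eif4e1b, the scaffold genes Eif4g1, Eif4g2 and Eif4g3, the helicase genes Eif4a1 and Eif4a2, and the helicase cofactor Eif4b. All 10 were found. Sequencing covered total RNA and footprints (RPF, ribosome-protected fragments, the mRNA left after nuclease has removed all that ribosomes do not cover) of testes from Miwi-null and wild-type (WT) C57BL/6 mice on postnatal day 24. Each genotype and assay had 2 libraries, called here null RNA, WT RNA, null RPF and WT RPF with their replicate numbers. Strain, age and tissue were the same in both genotypes. The sources used here do not describe the null allele, nor say whether a library came from 1 animal or from a pool. The p-values therefore measure the spread between libraries, part of which may be technical. A testis holds germ cells of many stages beside Sertoli, Leydig and peritubular myoid cells, so fewer cells of a type and less RNA per cell cannot be told apart.

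In eIF4F, eIF4E binds the methylguanosine cap, eIF4G bridges it to the small ribosomal subunit through eIF3, and eIF4A unwinds structure in the mRNA leader with the help of eIF4B. Male germ cells make many mRNAs long before translating them, and later stages work with transcription shut down, so control of translation is a known feature of this tissue. Miwi (Piwil1) encodes a PIWI protein that binds piRNAs in spermatocytes and round spermatids, and spermatogenesis in mice that lack it stops among round spermatids.

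Piwil1 stood at 3.52 and 2.27 CPM (a count scaled to a common library total) in null RNA against 552 and 533 CPM in WT RNA, and at 3.31 and 3.26 CPM in null RPF against 482 and 389.6 CPM in WT RPF, so each library carried its labelled genotype. Library totals were 12721791 and 11130948 counts in null RNA, 15592800 and 13874631 in WT RNA, 11662662 and 28334624 in null RPF, and 28054423 and 17735639 in WT RPF. The 2 null RNA libraries lay close to counting noise: their chi-square per gene was 1.18 over 14911 genes (p = 9.42e-48, chi-square test), against 3.86 in WT RNA, 22.6 in null RPF and 44.7 in WT RPF. For the 9 eIF4F genes with enough counts, it was 0.118 in null RNA and 14.2 in WT RNA. The null RNA libraries were kept as 2, as labelled, and results are also given with the pair counted as 1. Over all genes they differed slightly beyond counting noise, and the 9 eIF4F genes did not show this excess. The chi-square test cannot tell whether the pair came from separate animals or from 1 sample. Cell type markers moved with genotype: 11 of 11 late spermatid markers fell in RNA and in footprints, and their summed level was 2162 to 2167 CPM in null RNA against 16790 to 17160 in WT RNA. Spermatocyte markers summed to 1110 to 1137 CPM in null RNA against 690 to 765 in WT RNA (5 of 7 rose), Leydig markers to 2186 to 2190 against 1147 to 1159 (2 of 6 rose, 1 fell), and myoid markers to 163 to 165 against 576 to 597 (6 of 6 fell). In footprints spermatocyte markers summed to 2825 and 2792 CPM in null RPF against 2803 and 3004 in WT RPF, and 1 of 7 rose. Of 6 Leydig markers 4 rose in footprints, and of 6 myoid markers 4 fell. Insl3, 1 of the Leydig markers, averaged 1577 CPM in null RNA against 602 in WT RNA. It made up most of both Leydig sums in RNA, so these mainly followed 1 gene. Star also rose, at 50.7 against 16.8 CPM, and Cyp11a1 was the Leydig marker that fell, at 111.5 against 203.6 CPM. Over all genes 16.5% rose and 20.8% fell in RNA, and 12.0% rose and 13.3% fell in footprints. No marker of these lists was at 0 in any library, and the part of cell composition in the results on eIF4F genes was not tested.

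**Figure D1:**
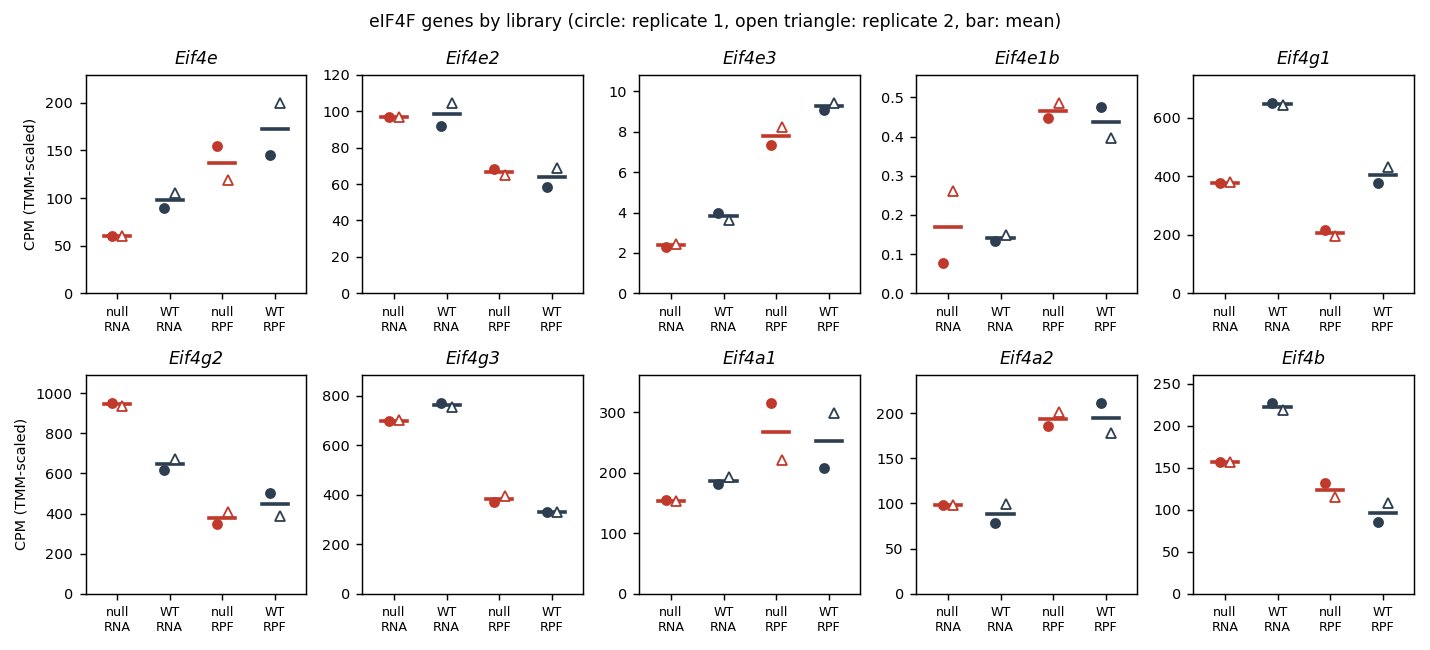
Level of each eIF4F gene in each library, in CPM on TMM-scaled library sizes (linear axes from 0, one panel per gene). Circles are replicate 1, open triangles replicate 2 and bars the mean of both; Eif4g1 is lower in null than in WT libraries in both assays, with 377 and 381 against 651 and 645 CPM in RNA.

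Levels were compared between genes as CPM per kilobase of coding length, since a long coding sequence collects more fragments. In the values below each gene is represented by 1 transcript, and the order depended on that choice. With counts summed over transcripts, Eif4g1 stood above Eif4g2 in both WT RNA libraries. In such sums a fragment can count for several transcripts, so they favour genes with more of them. Eif4g1 has 20 coding transcripts and Eif4g2 6. In WT RNA the scaffold gene Eif4g2 stood highest, at 237 ± 14.5 CPM per kb (SD, n = 2, as for all means below). Eif4g3 followed at 161 ± 2.14, Eif4a1 at 154 ± 7.17, Eif4e at 150 ± 16.5, Eif4e2 at 136 ± 12.1, Eif4g1 at 135 ± 0.81, Eif4b at 122 ± 2.91 and Eif4a2 at 72.5 ± 12.1 CPM per kb. The libraries of Eif4a1 and Eif4e overlapped in that order, as did those of Eif4e and Eif4e2 and those of Eif4e2 and Eif4g1. In null RNA, Eif4g2 was again first at 347.5 ± 2.82 CPM per kb, while Eif4g1 was eighth at 78.9 ± 0.606, below Eif4a2 at 80.2 ± 0.0117. Neighbouring genes did not overlap in null RNA, where the replicates lay almost on top of each other.

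Footprints ranked the genes differently. In null RPF the helicase gene Eif4a1 stood first at 220 ± 54.2 CPM per kb, followed by Eif4e at 210.5 ± 38.8 and Eif4a2 at 158 ± 9.29, and the libraries of Eif4a1 and Eif4e overlapped. In WT RPF, Eif4e averaged 265 ± 58.7 CPM per kb, Eif4a1 208 ± 52.7, Eif4g2 164 ± 30.3 and Eif4a2 159 ± 19.0, each overlapping its neighbour. Eif4g1 was eighth in null RPF at 43.1 ± 3.35 CPM per kb and sixth in WT RPF at 84.6 ± 8.20.

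Eif4e3 and Eif4e1b were rare in all 8 libraries. Eif4e3, a divergent cap-binding paralog (chromosome 6, 99621879 to 99692873, GRCm38), reached 3.82 ± 0.165 CPM per kb in null RNA and 6.13 ± 0.358 in WT RNA. Eif4e1b, known as a cap-binding paralog of oocytes (chromosome 13, 54783994 to 54788459), had 1 and 3 counts in null RNA and 2 and 2 in WT RNA. Its footprints numbered 5 and 14 in null RPF and 14 and 7 in WT RPF, more than its RNA in every library pair. It did not pass the filter on low counts and was not tested, so comparisons between genotypes cover 9 of the 10 genes.

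Of these 9 genes, 4 fell and 1 rose in null RNA: Eif4g1, Eif4e, Eif4e3 and Eif4b fell and Eif4g2 rose (edgeR quasi-likelihood test, Benjamini-Hochberg adjusted p under 0.05 over 16050 genes). Over all genes tested, 37.3% passed this test in RNA, of which the lower ones made up 20.8% of genes and the higher ones 16.5%. In footprints Eif4g1 alone among the 9 passed the test, in the lower direction, against 13.3% lower and 12.0% higher over all genes. Translational efficiency (TE, footprints relative to RNA, tested as the interaction of genotype and assay) rose for Eif4b and fell for Eif4g2, where 7.32% of all genes rose and 7.56% fell. The median log2 change of the 9 genes was -0.28 in RNA against -0.07 over all genes, -0.01 in footprints against 0.00, and 0.33 in TE against 0.04. As scaled, a change of 0 means that a gene kept its standing among most genes of its library, and absolute amounts per testis were not measured.

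The 5 RNA calls differed in strength. Fitted to the 4 RNA libraries alone, all 5 genes were called. The edgeR adjusted p was then 1.8e-12 for Eif4g1, 7.14e-11 for Eif4g2, 1.41e-07 for Eif4b, 1.44e-07 for Eif4e and 0.0288 for Eif4e3. The spread in that fit was that of the RNA libraries, where the null pair lay close to counting noise. The fits below used both assays. Eif4g1 kept its RNA call and its footprint call in all 8 fits that left out 1 library. The RNA calls of Eif4e, Eif4e3, Eif4b and Eif4g2 were each lost when any of the 4 RNA libraries was left out, although their direction held. Without null RNA 1, null RNA 2, WT RNA 1 or WT RNA 2, the edgeR adjusted p was 0.094, 0.0917, 0.051 or 0.114 for Eif4e, 0.128, 0.0859, 0.105 or 0.0539 for Eif4e3, 0.0926, 0.089, 0.0891 or 0.0606 for Eif4b, and 0.0832, 0.0747, 0.117 or 0.0584 for Eif4g2. With the null RNA pair counted as 1 library, Eif4g1 was the gene still called in RNA, and neither TE call remained.

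**Figure D2:**
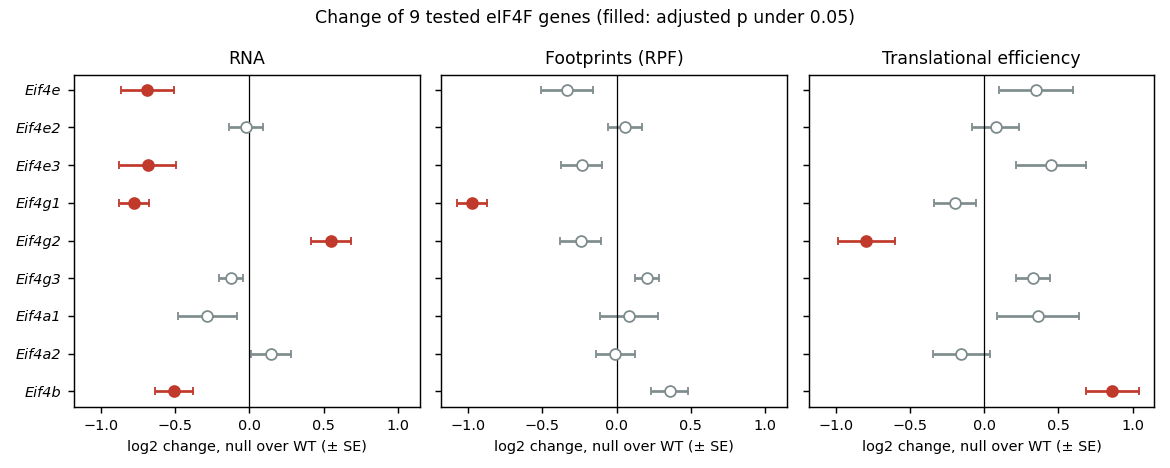
Log2 change, null over WT, of the 9 tested eIF4F genes in RNA, in footprints and in translational efficiency (points with ± 1 SE from the edgeR fit, filled where the adjusted p is under 0.05). In RNA 4 genes fell and 1 rose, in footprints 1 fell, and in translational efficiency 1 rose and 1 fell.

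The cap-binding gene Eif4e (ENSMUSG00000028156.12, chromosome 3, 138526191 to 138559696), whose product binds the cap in eIF4F, had 60.6 and 60.5 CPM in null RNA against 89.9 and 105 CPM in WT RNA. The groups did not overlap, and the RNA level of Eif4e fell by a log2 change of 0.69 ± 0.18 (SE) (adjusted p = 0.0171), to 0.621 of the WT level. Its footprints stood at 155 and 119 CPM in null RPF against 146 and 200 CPM in WT RPF. These groups overlapped, and the footprint difference of -0.33 ± 0.17 missed the threshold (adjusted p = 0.201), with an interval of ± 2 SE from -0.68 to 0.01. In both genotypes the shallower footprint library, null RPF 1 and WT RPF 2, gave the higher Eif4e value. Without WT RPF 1 the footprint difference of Eif4e was called, at -0.52 (adjusted p = 0.0306). With a smooth trend on coding length removed from each library, its RNA call was lost (adjusted p = 0.0609).

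Eif4e2 encodes 4EHP, a cap-binding protein that does not bind eIF4G and is known for repressing translation. It had 96.7 and 97.0 CPM in null RNA against 92.1 and 104 CPM in WT RNA, the null values lying between the WT values. Its RNA difference was -0.02 ± 0.11 on the log2 scale (interval -0.25 to 0.21) and its footprint difference 0.06 ± 0.11 (interval -0.17 to 0.28). The sign of both depended on the processing. Eif4e3 had 30 and 28 counts in null RNA against 59 and 49 in WT RNA, or 2.30 and 2.44 against 3.96 and 3.65 CPM. Both null libraries lay below both WT libraries, and Eif4e3 RNA fell by 0.69 ± 0.19 on the log2 scale (adjusted p = 0.0217). That call was also lost with library totals in place of TMM (adjusted p = 0.0503), with DESeq2 (0.126) and with the coding length trend removed (0.0694). Eif4e3 footprints, 7.32 and 8.25 CPM in null RPF against 9.10 and 9.42 CPM in WT RPF, were lower in both null libraries, but the difference of -0.24 ± 0.14 missed the threshold (adjusted p = 0.255).

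Among the scaffold genes, each of the 3 gave a different pattern. Eif4g1 (ENSMUSG00000045983.16, chromosome 16, 20672720 to 20692883) encodes the main scaffold that joins eIF4E, eIF4A and eIF3. It had 377 and 381 CPM in null RNA against 651 and 645 CPM in WT RNA. It had 218 and 195 CPM in null RPF against 378 and 434 CPM in WT RPF. Both null libraries were below both WT libraries in RNA and in footprints. Eif4g1 fell by 0.78 ± 0.10 on the log2 scale in RNA (adjusted p = 0.000547) and by 0.97 ± 0.10 in footprints (adjusted p = 0.000185), to 0.584 and 0.509 of WT. Its TE difference of -0.20 ± 0.14 missed the threshold (adjusted p = 0.383), with an interval from -0.48 to 0.08. Fitted to the footprint libraries alone, the footprint change was still called (adjusted p = 0.0154). Over the 8 fits without 1 library, the footprint change of Eif4g1 ranged from -1.05 to -0.87 and its RNA change from -0.79 to -0.71.

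Eif4g2 (ENSMUSG00000005610.17, chromosome 7, 111067985 to 111083030) encodes DAP5, a relative of eIF4G without its eIF4E-binding region. Its RNA stood at 949.9 and 939 CPM in null against 617 and 673 CPM in WT. Both null libraries were above both WT libraries, and Eif4g2 RNA rose by 0.55 ± 0.14 on the log2 scale (adjusted p = 0.0138), to 1.47 times WT. Footprints did not follow: Eif4g2 had 345 and 409.5 CPM in null RPF against 505 and 388 CPM in WT RPF, and the difference was -0.24 ± 0.14 (adjusted p = 0.234). The higher null footprint value lay between the WT values. The TE of Eif4g2 fell by 0.79 ± 0.19 on the log2 scale (adjusted p = 0.0294), to 0.577 of WT. In the authors' deposited table its TE was 0.407 and 0.518 in null against 1.05 and 0.700 in WT. That call was lost without any 1 of the 4 RNA libraries (adjusted p from 0.0857 to 0.142), without null RPF 1 (0.0673) and with counts summed over transcripts (0.0521).

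Eif4g3 (ENSMUSG00000028760.16, chromosome 4, 137991779 to 138207086) encodes another full scaffold, known from a mouse mutant to be needed for spermatocytes to leave meiotic prophase. It had 699 and 699.6 CPM in null RNA against 768 and 754 CPM in WT RNA. It had 370.3 and 393 CPM in null RPF against 331 and 331 CPM in WT RPF. Eif4g3 was thus lower in both null RNA libraries and higher in both null footprint libraries, though by small amounts. The log2 differences were -0.12 ± 0.08 in RNA (adjusted p = 0.262), 0.21 ± 0.08 in footprints (adjusted p = 0.0942) and 0.33 ± 0.11 in TE (adjusted p = 0.0861), and none passed the threshold. Over all genes, 43.1% had both null RNA libraries below both WT ones and 28.3% had both null footprint libraries above both WT ones. Of the 10 eIF4F genes, 6 were below WT without overlap in RNA (Eif4e, Eif4e3, Eif4g1, Eif4g3, Eif4a1 and Eif4b) and 1 was above (Eif4g2), where 34.7% of all genes were above. In footprints 2 were above (Eif4g3 and Eif4b) and 2 below (Eif4g1 and Eif4e3), where 29.3% of all genes were below.

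The helicase genes Eif4a1 (ENSMUSG00000059796.16, chromosome 11, 69666936 to 69672423) and Eif4a2 (ENSMUSG00000022884.15, chromosome 16, 23107468 to 23114132) encode close paralogs of the DEAD-box helicase eIF4A. How multiply mapping fragments were treated is not given in the sources used here, so the split between these near copies is uncertain. Eif4a1 had 154.5 and 153 CPM in null RNA against 181 and 193 CPM in WT RNA, and 315 and 222 CPM in null RPF against 208 and 299 CPM in WT RPF. Its RNA groups did not overlap, while its footprint libraries spread widely in both genotypes. The differences were -0.28 ± 0.20 in RNA (adjusted p = 0.296) and 0.08 ± 0.19 in footprints (adjusted p = 0.799). Eif4a2 had 97.9 and 97.9 CPM in null RNA against 78.1 and 99.0 CPM in WT RNA, and 185 and 201.5 CPM in null RPF against 211 and 178 CPM in WT RPF. The groups overlapped in both assays, with differences of 0.14 ± 0.14 in RNA (adjusted p = 0.439) and -0.01 ± 0.13 in footprints (adjusted p = 0.974). Fitted to the 4 RNA libraries alone, Eif4a1 was called lower by 0.22 (adjusted p = 0.00205) and Eif4a2 higher by 0.21 (adjusted p = 0.0303), the spread then being that of the RNA libraries.

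Eif4b (ENSMUSG00000058655.9, chromosome 15, 102073773 to 102097173) encodes the cofactor that stimulates the eIF4A helicase. Its RNA stood at 157 and 157 CPM in null against 227 and 219 CPM in WT. Its footprints stood at 132 and 115 CPM in null RPF against 85.4 and 108 CPM in WT RPF. Null libraries were below WT libraries in RNA and above them in footprints. Eif4b RNA fell by 0.51 ± 0.13 on the log2 scale (adjusted p = 0.0139), to 0.704 of WT, while the footprint difference of 0.36 ± 0.13 missed the threshold (adjusted p = 0.0706). Its TE rose by 0.86 ± 0.18 (adjusted p = 0.0162), to 1.82 times WT. In the authors' deposited table the TE of Eif4b was 0.943 and 0.871 in null against 0.482 and 0.596 in WT. The TE call of Eif4b was lost without any 1 of the 4 RNA libraries (adjusted p from 0.0632 to 0.0881), and without WT RPF 2 its footprint difference was called, at 0.53 (adjusted p = 0.00598).

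Promoters are shown for the scaffold gene that fell in both assays and for the cofactor whose RNA fell while its TE rose. Also shown is that of the cap-binding gene Eif4e, which fell in RNA. Eif4e3, the other cap-binding gene that fell in RNA, had no window. RefSeq windows of GRCm38.p6, from 250 bases before to 50 bases after a start site, covered 7 of the 10 genes in 11 windows. Capitals mark CACGTG, the canonical E-box that factors such as MYC and USF bind, which reads the same on both strands. The windows are chr3:138527018-138527317 for Eif4e (1 of its 2 windows), chr16:20672477-20672776 for Eif4g1 and chr15:102073523-102073822 for Eif4b, all on the plus strand. The Eif4e window was chosen because it holds the E-box, which its other window lacks.
Eif4e: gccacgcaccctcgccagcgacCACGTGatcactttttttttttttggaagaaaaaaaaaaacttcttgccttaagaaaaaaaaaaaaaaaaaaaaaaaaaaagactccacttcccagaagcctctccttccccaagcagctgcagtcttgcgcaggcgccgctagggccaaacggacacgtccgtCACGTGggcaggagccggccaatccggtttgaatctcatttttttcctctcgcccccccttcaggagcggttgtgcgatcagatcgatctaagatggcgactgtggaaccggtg
Eif4g1: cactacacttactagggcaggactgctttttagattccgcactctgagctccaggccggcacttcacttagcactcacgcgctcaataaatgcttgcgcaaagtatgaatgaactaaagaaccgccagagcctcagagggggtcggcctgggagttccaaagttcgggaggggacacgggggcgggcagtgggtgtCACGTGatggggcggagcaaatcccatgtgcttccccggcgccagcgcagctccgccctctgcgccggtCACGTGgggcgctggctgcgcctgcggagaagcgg
Eif4b: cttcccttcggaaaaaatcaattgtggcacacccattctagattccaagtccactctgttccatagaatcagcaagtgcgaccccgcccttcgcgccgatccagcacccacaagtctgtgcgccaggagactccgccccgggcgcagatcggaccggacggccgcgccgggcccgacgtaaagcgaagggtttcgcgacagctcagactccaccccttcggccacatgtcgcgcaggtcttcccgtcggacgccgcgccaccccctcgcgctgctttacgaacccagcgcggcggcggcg
The Eif4e window holds CACGTG 228 and 64 bases before the start site, and the Eif4g1 window 54 bases before and 15 bases after it. A window of Eif4a1 holds it once, 189 bases before the start site, so 3 of the 11 windows of eIF4F genes hold it. Among all 32851 windows of the same length, 7.15% do. The window of Eif4b does not hold these letters. The cAMP response element TGACGTCA, which reads the same on both strands and shares no stretch of the E-box beyond ACGT, stood in 0 of the 11 windows and in 1.79% of all windows.

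Within a genotype, footprints relative to RNA separated the genes into those with more and those with fewer footprints than their RNA share. In null testes 4 of the 9 genes had a higher footprint than RNA level and 5 a lower one, and in WT testes 3 were higher and 5 lower. Over all genes, 75.5% differed between footprints and RNA in null (38.4% higher, 37.1% lower) and 74.2% in WT (37.8% higher, 36.4% lower). Eif4e3 had a log2 ratio of footprint to RNA CPM of 1.73 ± 0.17 (SE) in null and 1.28 ± 0.15 in WT. Eif4e stood at 1.18 ± 0.18 in null and 0.82 ± 0.18 in WT, Eif4a2 at 0.98 ± 0.14 and 1.14 ± 0.14, and Eif4a1 at 0.80 ± 0.20 and 0.44 ± 0.20, the last of which missed the threshold in WT (adjusted p = 0.0702). All 3 scaffold genes lay below 0. Eif4g2 stood at -1.32 ± 0.14 in null and -0.53 ± 0.14 in WT, Eif4g3 at -0.87 ± 0.08 and -1.20 ± 0.08, and Eif4g1 at -0.87 ± 0.10 and -0.68 ± 0.10. Eif4b stood at -0.35 ± 0.13 in null and -1.21 ± 0.13 in WT. The order of the genes by this ratio did not hold under the length correction described next.

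These levels depended on coding length, which runs from 621 bases in Eif4e3 to 4800 in Eif4g1. With the length trend removed, Eif4g1 stood at 0.18 in null and 0.31 in WT, and Eif4g3 at 0.16 in null and -0.22 in WT, so the sign of Eif4g1 turned in both genotypes and that of Eif4g3 in null. Eif4e then stood at 0.28 in null (adjusted p = 0.207) and 0.03 in WT (adjusted p = 0.881), and neither passed the threshold. Eif4b stood at -0.22 in null (adjusted p = 0.164) and -1.08 in WT (adjusted p = 9.06e-05), and Eif4g2 at -0.80 in null (adjusted p = 0.000911) and -0.04 in WT (adjusted p = 0.821). Eif4e3 stood at 0.80 in null and 0.47 in WT, and Eif4a2 at 0.70 in null and 0.89 in WT, so Eif4e3 was above Eif4a2 in null and below it in WT. Eif4e2 stood at -1.37 in null and -1.35 in WT, lower than every other tested eIF4F gene in both genotypes. The differences of Eif4b and Eif4g2 between genotypes, which compare a gene with itself, kept their direction. Without the length correction Eif4e2 stood at -0.55 ± 0.11 in null and -0.62 ± 0.11 in WT, and with its longest transcript in place of the one with most counts it turned to 0.16 in null and 0.29 in WT.

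**Figure D3:**
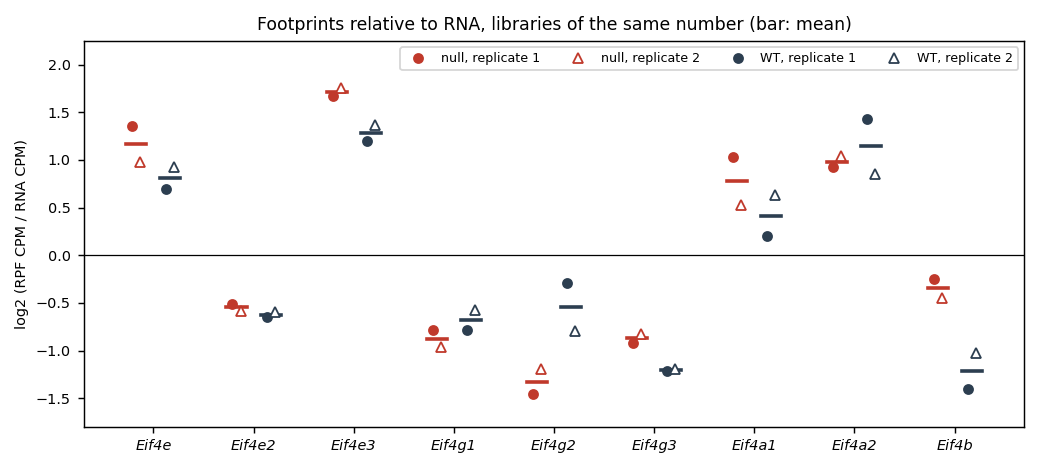
Log2 ratio of footprint to RNA CPM for 9 eIF4F genes, taking libraries with the same replicate number together for display (circles replicate 1, open triangles replicate 2, bars their mean; null left of WT). Eif4b lies higher in null, at -0.25 and -0.45 against -1.41 and -1.03 in WT, and Eif4g2 lower, at -1.46 and -1.20 against -0.29 and -0.79.

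Shares within each paralog family were computed from CPM per kb. Of the summed RNA of the 3 scaffold genes, Eif4g1 made up 13.6% and 13.9% in null against 25.8% and 24.8% in WT. Eif4g2 made up 60.7% and 60.3% in null RNA against 43.3% and 45.7% in WT RNA, and Eif4g3 25.7% and 25.8% against 30.9% and 29.4%. The scaffold sum itself stood at 576 and 573 CPM per kb in null RNA against 525 and 541 in WT RNA, so the make-up differed more than the total. In footprints Eif4g1 held 18.1% and 14.8% in null against 23.6% and 29.8% in WT, Eif4g3 31.2% and 30.3% against 20.9% and 23.1%, and Eif4g2 50.7% and 54.9% against 55.5% and 47.1%. Eif4g2 thus overlapped between genotypes in footprints while Eif4g1 and Eif4g3 did not. The RNA shares depended on the transcripts used. Summed counts can hold a fragment several times, and Eif4g1 has 20 coding transcripts, Eif4g2 6 and Eif4g3 9. With counts summed over transcripts, Eif4g1 made up 31.88% and 32.17% in null RNA against 47.65% and 46.77% in WT RNA. Eif4g2 then made up 33.41% and 33.25% in null RNA against 18.4% and 20.42% in WT RNA. Eif4g3, at 34.72% and 34.58% against 33.95% and 32.81%, then lay higher in null RNA. The shares are given as values, and no test was made of them.

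Among the cap-binding genes, Eif4e made up 40.3% and 40.1% of the family's RNA in null against 50.7% and 51.7% in WT, and Eif4e2 58.1% and 58.1% against 46.9% and 46.4%. In footprints Eif4e held 69.0% and 63.8% in null against 69.8% and 73.3% in WT, and Eif4e2 27.4% and 31.3% against 25.4% and 22.9%. Which of these genes held the larger share depended on the transcripts used. Summed counts can hold a fragment several times, and they favour Eif4e2, with 8 coding transcripts against 5 for Eif4e. With the longest coding transcripts Eif4e made up 55.1% and 53.7% in null RNA against 68.0% and 67.6% in WT RNA, and with counts summed over transcripts 23.4% and 23.2% against 35.5% and 35.7%. Its share was lower in both null RNA libraries in each case. With the transcript that stands for each gene, Eif4e3 lay between 1.60% and 4.63% of the family, and with summed counts between 0.362% and 0.995%. Of the helicase sum, Eif4a1 made up 61.3% and 61.1% in null RNA against 69.9% and 66.2% in WT RNA, and its footprint shares overlapped at 63.0% and 52.5% in null against 49.7% and 62.7% in WT. With counts summed over transcripts, Eif4a1 made up 25.53% and 24.71% in null RNA against 33.05% and 28.85% in WT RNA. Here too the sums favour the gene with more coding transcripts, 9 for Eif4a2 against 2 for Eif4a1.

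**Figure D4:**
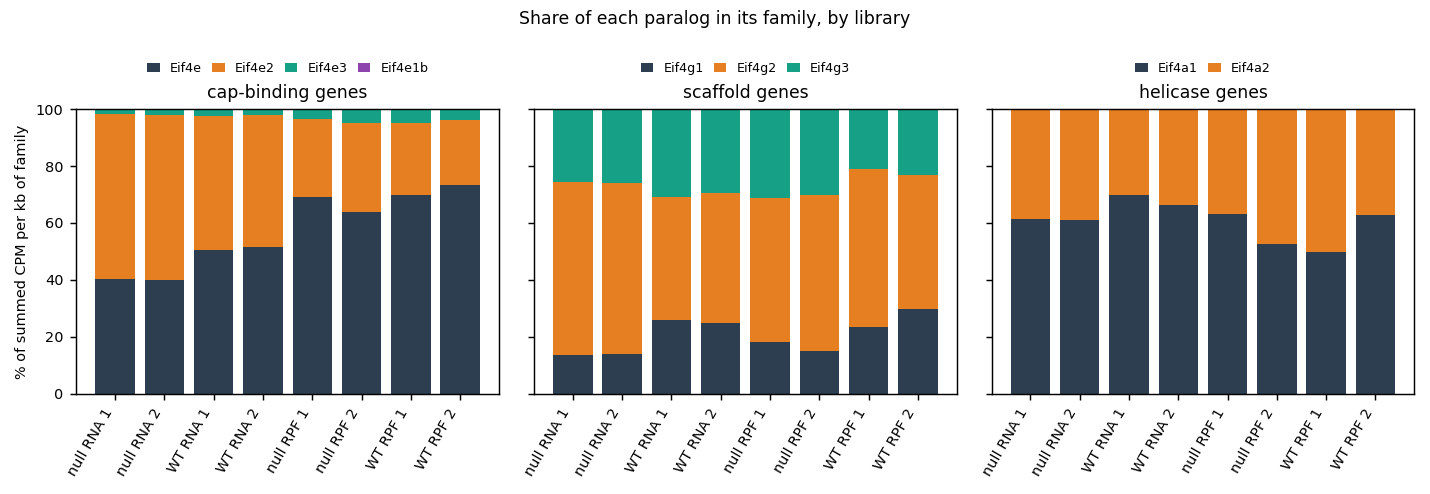
Share of each paralog in the summed CPM per kb of its family, one stacked bar per library (y axis in percent from 0 to 100). In RNA the Eif4g1 share is smaller in null (13.6% and 13.9%) than in WT (25.8% and 24.8%), and Eif4g2 takes the larger share. Shares are for the transcript that stands for each gene.

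The deposited transcripts of Eif4g3 did not move alike in RNA. Its short coding transcripts of 550 and 705 bases had log2 differences of -0.98 and -1.04 in RNA between null and WT, the 4734-base transcript that stands for the gene -0.12, and the 3006-base transcript 0.11. Counts of the 550-base transcript came to 4.66% and 4.41% of those of the 4734-base one in null RNA against 8.27% and 8.13% in WT RNA. For the 705-base transcript these shares were 3.81% and 3.70% in null against 6.97% and 7.26% in WT. In footprints they were 12.2% and 12.2% in null against 13.9% and 11.8% in WT for the 550-base transcript, and the groups overlapped. The 9 coding transcripts of Eif4g3 share exons, so a fragment can count for several, and these differences carry no test. For Eif4g1, the 10 coding transcripts of over 2000 bases ranged from -0.79 to -0.73 in RNA and from -1.0 to -0.95 in footprints. Its shorter transcripts did not move alike either. At the extremes, the 181-base transcript had -1.43 in RNA and -1.0 in footprints, and the 558-base transcript -0.314 and 0.0533. Divergence of short transcripts was thus not particular to Eif4g3, and the Eif4g1 differences carry no test.

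Other genes of the pathway were taken from lists of regulators and of eIF3 subunits. Of 31 regulators of eIF4F, 1 rose and 5 fell in RNA, 2 rose and 2 fell in footprints, and 4 rose and 0 fell in TE, with medians of -0.13 in RNA, 0.04 in footprints and 0.12 in TE. Over all genes 37.3% were called in RNA (16.5% higher, 20.8% lower), 25.4% in footprints (12.0% higher, 13.3% lower) and 14.9% in TE (7.32% higher, 7.56% lower), with medians of -0.07, 0.00 and 0.04. Eif4h, a relative of Eif4b that also stimulates eIF4A, fell by 1.19 ± 0.17 on the log2 scale in RNA (adjusted p = 0.00082). Ctif, a scaffold that works with the nuclear cap-binding complex, fell by 1.36 ± 0.29 (adjusted p = 0.00644), and Ncbp2, the cap-binding subunit of that complex, by 0.99 ± 0.12 (adjusted p = 0.000484). Tsc2, an upstream inhibitor of mTOR, fell by 0.44 ± 0.09 (adjusted p = 0.00637), and Eif4ebp3, which encodes a protein that binds eIF4E in place of eIF4G, rose by 0.84 ± 0.24 (adjusted p = 0.0248). Ctif and Eif4ebp3 stood at low levels, Ctif averaging 1.98 CPM in null RNA and 5.11 in WT RNA and Eif4ebp3 7.06 and 3.95. The TE of Ctif rose by 1.56 ± 0.38 (adjusted p = 0.0294), of Eif4h by 1.19 ± 0.23 (0.0123), of Ncbp2 by 1.01 ± 0.17 (0.00683) and of Gigyf1, a partner of 4EHP, by 0.68 ± 0.19 (0.0493). In footprints Pdcd4, an inhibitor of eIF4A, rose by 0.49 ± 0.14 (adjusted p = 0.033) and Mif4gd by 0.31 ± 0.09 (0.0387), while Rheb, an activator of mTOR, fell by 0.34 ± 0.10 (0.0437) and Eif4enif1, which encodes an eIF4E-binding transporter, by 0.31 ± 0.09 (0.0337). The RNA calls of Eif4h and Ncbp2 held in all 8 fits without 1 library. Those of Ctif (without null RNA 2 or WT RNA 1), Tsc2 (without null RNA 2) and Eif4ebp3 (without null RNA 1, null RNA 2 or WT RNA 1) did not. Each of the 4 TE calls was lost without at least 3 of the 4 RNA libraries, and the footprint calls of Pdcd4, Mif4gd, Rheb and Eif4enif1 held in 2, 1, 0 and 1 of the 8 fits. Fitted to the footprint libraries alone, all 4 footprint calls were lost (adjusted p from 0.159 to 0.2).

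Of the 14 subunits of eIF3, the complex that eIF4G contacts on the small ribosomal subunit, 0 rose and 4 fell in RNA, 1 rose and 1 fell in footprints, and 3 rose and 0 fell in TE, beside 37.3%, 25.4% and 14.9% of all genes called in RNA, footprints and TE. The medians of the subunits were -0.22 in RNA, 0.03 in footprints and 0.28 in TE. Eif3f, which studies of MIWI name as a partner in translation, fell by 0.84 ± 0.14 on the log2 scale in RNA (adjusted p = 0.00214). Its footprint difference was -0.13 ± 0.14 (adjusted p = 0.543) and its TE rose by 0.71 ± 0.20 (adjusted p = 0.0453). Eif3j1, Eif3g and Eif3h fell by 0.55 ± 0.17, 0.43 ± 0.15 and 0.35 ± 0.08 in RNA (adjusted p = 0.0333, 0.0476 and 0.0117). In footprints Eif3d, a subunit that can itself bind the cap, rose by 0.54 ± 0.12 (adjusted p = 0.00939), and Eif3j1 fell by 0.75 ± 0.16 (adjusted p = 0.00958). Both footprint calls were lost when the footprint libraries were fitted alone (adjusted p = 0.0916 for Eif3d and 0.073 for Eif3j1), and that of Eif3j1 also without null RPF 2 (0.0661). The TE of Eif3d rose by 0.62 ± 0.16 (adjusted p = 0.0379) and that of Eif3h by 0.58 ± 0.12 (adjusted p = 0.0154). The RNA call of Eif3f held in all 8 fits without 1 library, whereas the TE calls of Eif3f, Eif3d and Eif3h held in 2, 3 and 3 of them, and those of Eif3j1, Eif3g and Eif3h in RNA in 4, 3 and 4. With the null RNA pair counted as 1 library, all TE calls named for regulators and eIF3 subunits were lost.

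**Figure D5:**
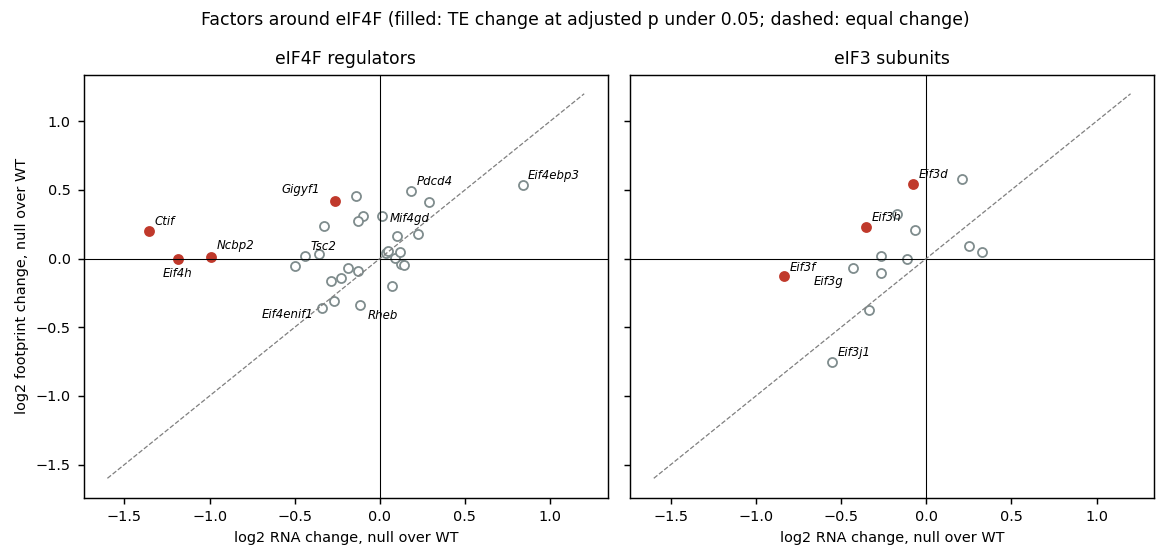
Log2 change in RNA (x axis) and in footprints (y axis), null over WT, of 31 regulators of eIF4F and 14 eIF3 subunits, with the dashed line at equal change. Filled points passed the test for a TE change; Ctif, Eif4h and Ncbp2 lie far left of the line with footprint changes near 0.20, 0.00 and 0.01.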

How the data were processed

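Total RNA and ribosome footprints were measured in 8 testis libraries, grouped by the genotype and assay in their titles. The authors deposited whole-number fragment counts per transcript, not normalized per the file headers, for 99671 transcripts in 1 table per replicate number and a merged one. FPKM values, the TE ratio (footprint FPKM over RNA FPKM) and its log2 change between genotypes were computed by the authors, per the file headers, and were used only where named. Read trimming and alignment tools in the submitters' processing notes are STAR 2.5.0a, Bowtie 1.2.2 and cutadapt 2.5, with GRCm38 as the genome. For the counting program, its use of strand and multiply mapping fragments, details were not given in the sources used here. Reads of overlapping genes (Rfc4 with Eif4a2, Gpr27 with Eif4e3) may therefore be mixed. Merged counts equalled the sum of both replicates in all 99671 rows. Of the lengths given, 84.7% are multiples of 3, so they are coding lengths.

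Transcripts of a gene shared counts (summing over the transcripts of a gene gave 2.23 to 2.39 times the count of its largest), so the transcript with the highest mean count stood for its gene. Counts were filtered with filterByExpr (minimum count 10, minimum total 15), which kept 16050 genes, scaled by TMM and fitted with edgeR 4.0.16 (quasi-likelihood, robust) in R 4.3.3, with 1 mean per group, all 8 libraries and 4 residual degrees of freedom. Each gene has 1 dispersion for both assays, although footprint replicates spread more than RNA replicates. SE is the absolute log2 change over the square root of F, and intervals are ± 2 SE. CPM use TMM-scaled library sizes, where 1 count is 0.034 to 0.0893 CPM. Intervals and SDs from 2 libraries are imprecise.

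All 10 eIF4F genes are named, with the up to 4 largest called changes per direction of the pathway lists, Eif3f, Piwil1 as genotype check, and for each tested gene but Eif4e3, which is under the CPM minimum, the 2 genes most like it over the libraries (1 of these genes is not reported here). The genes, lists and markers were chosen with earlier results of these data known. Alternatives used DESeq2 1.42.0, other scalings, filters and transcripts, a replicate block, a coding length trend (lowess span 0.3) and fits without 1 library; the footprint pairing in crossed order and the null RNA pair counted as 1 library were added after seeing the data. Gene coordinates and promoter windows are from RefSeq, GRCm38.p6.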

Additional observations from a re-analysis of the deposited data

Results flagged for a closer look

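For 3 eIF4F genes the null against WT difference was flagged for comparison between RNA and footprints. Eif4b and Eif4g2 passed the test of this difference, as did 14.9% of all genes. Eif4g3 did not, and was flagged because its libraries separated in opposite directions. The footprint change of Eif4b exceeded its RNA change by 0.86 ± 0.18 (SE) on the log2 scale (edgeR interaction of genotype and assay, adjusted p = 0.0162), with both null libraries below WT in RNA and above WT in footprints. The difference between assays for Eif4g2 was -0.79 ± 0.19 (adjusted p = 0.0294), its RNA being higher in both null libraries and its footprints overlapping. Eif4g3 was lower in both null RNA libraries and higher in both null footprint libraries, and its difference between assays, 0.33 ± 0.11, missed the threshold (adjusted p = 0.0861). Larger differences between assays, also not called, were those of Eif4e3 (0.45), Eif4a1 (0.36) and Eif4e (0.35). Neither called difference held without any 1 of the 4 RNA libraries.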

How the results depend on the processing

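Over the 9 tested genes and 5 comparisons, 768 values under alternative settings kept their direction and side of the threshold, 52 lost the call, 20 gained one and 33 changed sign. Leaving out 1 library gave 0 to 1 genes higher and 1 to 4 lower in RNA, 0 to 1 higher and 1 to 2 lower in footprints, and 0 to 1 higher and 0 to 1 lower in TE. With the null RNA pair counted as 1 library, RNA had 0 higher and 1 lower and TE 0 higher and 0 lower. RNA libraries alone gave 2 genes higher in RNA. With the coding length trend removed, 2 genes were lower in RNA; for footprints against RNA, 2 were higher and 2 lower in null, and 3 lower in WT. TE had 0 genes lower with counts summed over transcripts. Over all genes, 2646 were higher and 3342 lower in RNA, 1933 and 2142 in footprints, and 1175 and 1214 in TE. Without 1 RNA library these fell as low as 1429 higher and 1755 lower in RNA and 224 and 376 in TE. The null RNA pair as 1 library gave 1730 and 1874 in RNA and 227 and 447 in TE, RNA libraries alone 4531 higher in RNA, footprint libraries alone 826 and 1159 in footprints, library totals 679 higher in TE, and the replicate block 549 and 688 in TE. Without null RPF 2 and without WT RPF 2, 688 and 1910 genes were higher in TE.

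The replicate block gave 0 genes lower in TE (Eif4g2 adjusted p = 0.0708) and changed no other call of an eIF4F gene between genotypes. The correlation of the deviations of same-numbered libraries over 10171 genes was -0.808 between null RPF and WT RPF, which deviated in opposite directions. It was -0.107 to 0.073 between other groups. The numbers may be crossed between genotypes in footprints. Depth followed the same split, null RPF 1 and WT RPF 2 being the shallower libraries of their groups. Neither was tested, and the numbers were not used to pair libraries. Pairing the footprint libraries in crossed order gave 2 genes higher and 3 lower in footprints and 4 higher and 2 lower in TE, with 4063 and 4117 of all genes in footprints, 3544 and 2994 in TE, and 5136 lower in RNA.

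Some values changed sign. Eif4e2 in RNA turned to 0.019 (DESeq2 size factors, and DESeq2), 0.076 (library totals), 0.043 (TMM within assays), 0.12 (length trend), 0.19 (longest transcript), 0.078 (summed transcripts), 0.00049 (null RNA pair as 1) and 0.044 (RNA libraries alone), and without 1 library ranged from -0.11 to 0.067. In TE it turned to -0.063 (library totals), -0.018 (length trend), -0.13 (longest transcript) and -0.031 (summed), with -0.069 to 0.20 without 1 library, and in footprints it ranged from -0.023 to 0.18. Eif4a2 in footprints turned to 0.012 (DESeq2 size factors, and DESeq2) and 0.042 (length trend). Without 1 library, Eif4a2 ranged from -0.020 to 0.32 in RNA, -0.12 to 0.15 in footprints and -0.33 to 0.012 in TE, Eif4a1 from -0.19 to 0.36 in footprints, and Eif3f from -0.33 to 0.15 in footprints. For footprints against RNA, the length trend turned Eif4g1 to 0.18 in null and 0.31 in WT and Eif4g3 to 0.16 in null, and the longest transcript turned Eif4e2 to 0.16 in null and 0.29 in WT. Library totals in place of TMM moved the median TE change of all genes from 0.04 to -0.10; the TE changes of Eif4b and Eif4g2 kept their calls there. The cause was not tested in any of these. Depth limits Eif4e1b, with 1 to 3 RNA counts a library, and Eif4e3, with 28 to 59. Among the named regulators it also limits Ctif, at a mean of 1.98 CPM in null RNA.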

Other observations

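Across the 8 libraries, the genes most like single eIF4F genes were picked from the 10171 genes with a mean of at least 10 CPM. Likeness was measured as Pearson r of log2 CPM and is given as a description, since the libraries share 4 groups. The r values below are the highest found for each gene. How high the best r runs for other genes was not tested. The pattern of Eif4g1 was most like those of Cep85l (r = 0.995) and Sgf29 (0.994), that of Eif4g2 like those of Rdh11 (0.996) and Ralgapa1 (0.996), and that of Eif4g3 like those of Il4i1 (0.999) and Kmt2d (0.999). Eif4b was most like Parp1 (0.994) and Hnrnpul1 (0.992), Eif4e like Nexn (0.994) and Gm13547 (0.989), and Eif4e2 like Dph3 (0.989). Eif4a1 was most like Ndufa12 (0.992) and Chrne (0.992), and Eif4a2 like Dnajc5 (0.997) and Cenpp (0.997).

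In the authors' deposited merged table the log2 TE change, null over WT, was 0.78 for Eif4b, -0.74 for Eif4g2 and 0.49 for Eif4g3, each with no replicate test. For Eif4g1 and Eif4e2 it was 0.04 and -0.12, opposite in sign to the fitted TE changes of -0.20 and 0.08. The other tested eIF4F genes had the sign of the fit. From the authors' deposited replicate tables, the log2 TE ratio of null to WT was 0.97 in replicate 1 and 0.55 in replicate 2 for Eif4b, and -1.36 and -0.43 for Eif4g2. The replicate numbers were not shown to pair null with WT libraries, and footprint libraries of 1 number deviated in opposite directions, so these ratios depend on which libraries are set against each other. They had opposite signs in the replicates for both helicase genes, at 0.63 and -0.13 for Eif4a1 and -0.70 and 0.16 for Eif4a2.

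Of the marker lists not described so far, 1 of 7 round spermatid markers fell in RNA, while 5 fell and 1 rose in footprints, where they summed to 1276 and 1302 CPM in null RPF against 2113 and 2024 CPM in WT RPF. Of 6 spermatogonia markers, 3 fell in RNA and none passed the test in either direction in footprints. Of 8 Sertoli markers, 5 fell in RNA, while 1 rose and 2 fell in footprints and 4 rose in TE, their sums being 1149 and 1156 CPM in null RNA against 1590 and 1514 CPM in WT RNA. Over all genes 16.5% rose and 20.8% fell in RNA, 12.0% and 13.3% in footprints, and 7.32% and 7.56% in TE.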
